A study of Xenopus laevis with 12 samples.

Results

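The SoxE genes sox8.L, sox9.L, sox9.S and sox10.L of Xenopus laevis were followed across 12 arrays of animal caps, the ectoderm cut from the top of the frog blastula. The members were taken as every probe set that the platform annotation gives to 1 of these 4 symbols, which yielded 4 of 11303 genes with a symbol and 6 of the 32475 probe sets tested. sox8.L had 3 of them, and each of the other genes had 1. The suffixes .L and .S mark the long and short chromosome copies of a gene that this allotetraploid frog keeps, and the annotation used here gave 0 probe sets to sox8.S and sox10.S. In the annotation of Xenopus laevis assembly v10.1, sox8.L lies on chromosome 9_10L (120506029 to 120514402) and sox9.L on the same chromosome (21853266 to 21875574). sox9.S lies on 9_10S (19840590 to 19846183) and sox10.L on 4L (120280591 to 120289535).

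SoxE proteins are transcription factors with an HMG box that bends DNA at its binding site. In the vertebrate embryo they switch on in sequence in the neural crest, the migratory cells that arise at the border of the neural plate, and they are needed for crest cells to form and survive. Sox8 and Sox9 act early in the frog crest. Sox10 follows and later directs pigment cells and peripheral glia, while Sox9 directs cartilage and is also made in the otic placode. In frog embryos, a Wnt ligand given together with a BMP antagonist turns animal caps towards crest, and Kctd15, a protein with a BTB domain, is known to restrict crest formation.

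The caps fell into 4 groups of 3 arrays by the mRNAs put into the animal pole at the 2-cell stage: wnt3a, chordin and kctd15 together (wnt3a+chordin+kctd15), wnt3a with chordin (wnt3a+chordin), kctd15 alone, and lacZ, which encodes a bacterial enzyme, as the control. wnt3a encodes a Wnt ligand and chordin a secreted BMP antagonist. Dissection was at stage 9 and collection at stage 15 for all caps. The sources used here do not give mRNA doses, the frog strain or how many caps made 1 sample. The series title gives the search for Kctd15 targets in crest-like caps as the purpose. Nor do they tell whether the 3 replicates of a group stem from separate embryo batches, so the spread behind each p-value is that of these samples alone and may be technical.

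Values are log2 expression as deposited, with array medians of 7.17 to 7.28, and the number of arrays limits their precision. The wnt3a.S probe set averaged 12.59 ± 0.49 with wnt3a+chordin+kctd15, 12.76 ± 0.26 with wnt3a+chordin, 4.58 ± 0.61 with kctd15 and 5.90 ± 0.63 with lacZ (SD, n = 3). The kctd15.L probe set went against the labels, at 5.16 ± 1.63 with wnt3a+chordin+kctd15 against 10.66 ± 0.40 with wnt3a+chordin, and at 4.79 ± 1.43 with kctd15 against 10.96 ± 0.26 with lacZ. Where its probes lie on the injected mRNA is not given. Every comparison below therefore rests on the group labels, and "kctd15" means the arrays labelled so. The chordin probe set (chrd.1.S) was as high in kctd15 replicate 3 (9.08) and lacZ replicate 3 (9.37) as in arrays with chordin mRNA, and read 3.79 to 5.23 in the other 4 arrays without it.

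sox8.L was read by 3 probe sets, of which probe sets 1 and 3 come from 1 sequence cluster and are not independent readings. Probe set 1 (Xl2.53219.3.A1_at) read 9.38, 9.15 and 11.34 with wnt3a+chordin+kctd15 and 12.92, 12.18 and 12.42 with wnt3a+chordin. It read 4.62, 4.72 and 5.02 with kctd15 and 6.75, 7.42 and 8.06 with lacZ. The 4 groups did not overlap on this probe set, with wnt3a+chordin highest, wnt3a+chordin+kctd15 next, then lacZ and then kctd15. Probe set 2 (Xl2.29789.1.S1_at) read 8.19, 8.11 and 9.81 with wnt3a+chordin+kctd15, 11.67, 10.79 and 10.97 with wnt3a+chordin, 5.07, 5.67 and 5.16 with kctd15, and 5.90, 6.58 and 6.82 with lacZ. Probe set 3 (Xl2.53219.3.A1_s_at) read 7.64, 7.63 and 9.67 with wnt3a+chordin+kctd15, 11.21, 10.58 and 10.69 with wnt3a+chordin, 4.30, 4.43 and 4.24 with kctd15, and 5.48, 6.17 and 6.49 with lacZ. Both gave the same order without overlap, and on all 3 probe sets replicate 3 was the highest of the wnt3a+chordin+kctd15 arrays.

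sox9.L (Xl2.28992.1.S1_at) read 7.82, 7.62 and 7.92 with wnt3a+chordin+kctd15 and 10.63, 10.30 and 10.35 with wnt3a+chordin. It read 6.57, 6.21 and 6.78 with kctd15 and 4.64, 5.20 and 6.78 with lacZ. The wnt3a+chordin arrays were highest and tight, the wnt3a+chordin+kctd15 arrays formed a separate tight group below them, and the kctd15 and lacZ arrays overlapped. sox9.S (Xl2.1690.1.S1_at) read 7.80, 8.00 and 9.81 with wnt3a+chordin+kctd15 and 12.11 to 12.57 with wnt3a+chordin (mean 12.36 ± 0.23, SD, n = 3). With kctd15 it read 7.05, 6.67 and 7.58, and with lacZ it read 5.85, 5.82 and 8.35. Here the wnt3a+chordin arrays stood apart at the top, while lacZ replicate 3 reached above 2 of the wnt3a+chordin+kctd15 arrays and above all kctd15 arrays.

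sox10.L (Xl2.1588.1.S1_at) read 3.48, 3.69 and 7.86 with wnt3a+chordin+kctd15 and 10.69, 7.03 and 8.26 with wnt3a+chordin. It read 3.17, 3.41 and 3.73 with kctd15 and 3.21, 3.68 and 3.56 with lacZ. In 8 of 12 arrays, among them all 6 without wnt3a and chordin, it lay below the 10th percentile of its array (3.76 to 3.93 across arrays). It was clearly above that level in the 3 wnt3a+chordin arrays and in wnt3a+chordin+kctd15 replicate 3. The log2 spread within groups, pooled over all 4, was 1.56 for sox10.L, larger than that of all but 0.520% of probe sets. It was 0.59 for sox9.L, 0.95 for sox9.S and 0.61 to 0.72 for the sox8.L probe sets, against a median of 0.22 over all probe sets tested.

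**Figure D1:**
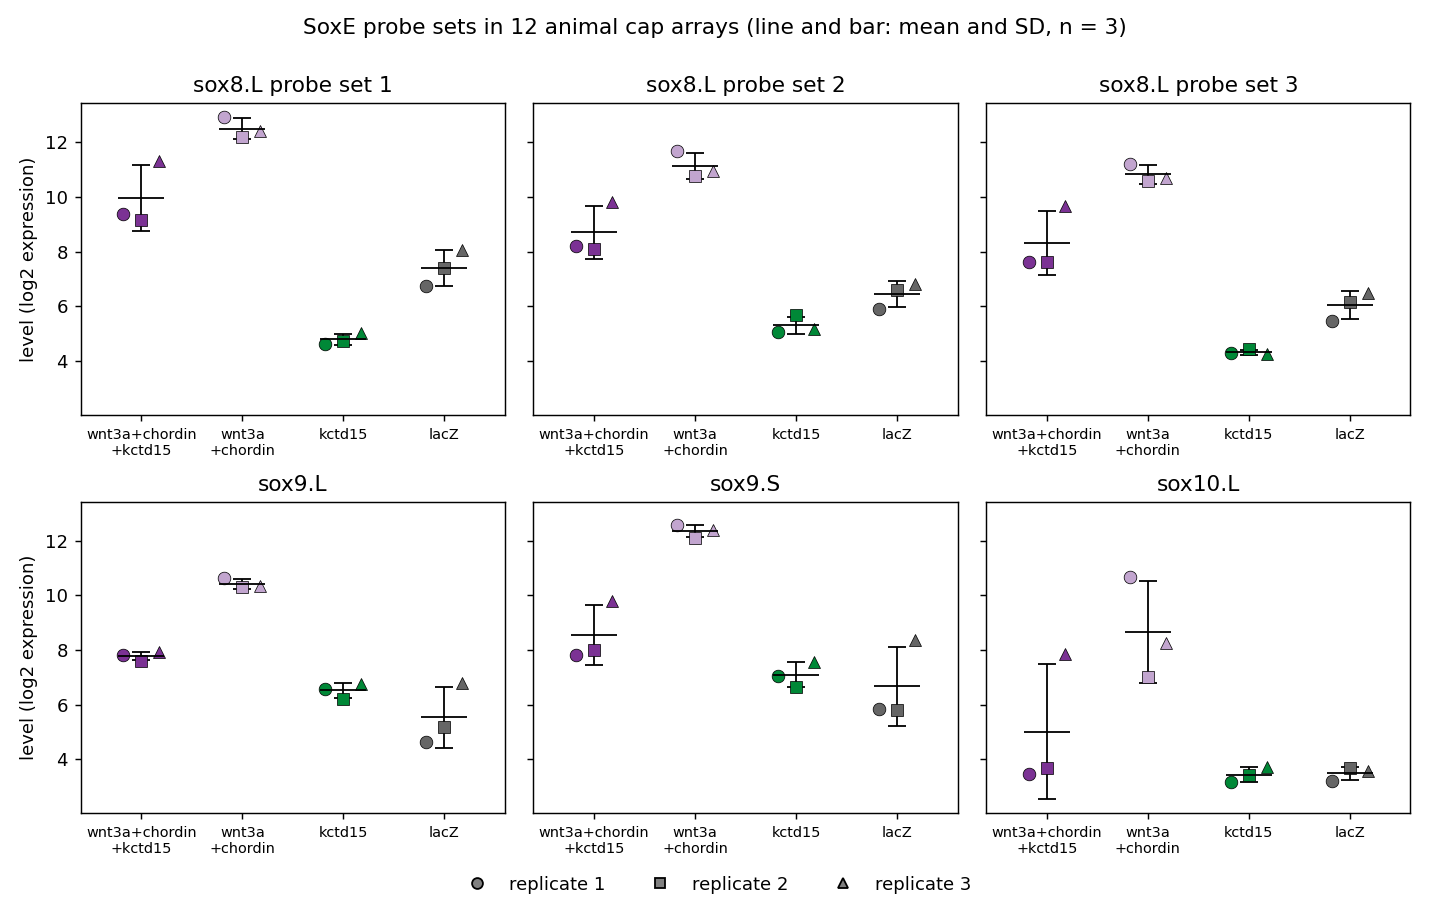
Level of each SoxE probe set (log2 expression, y axis) in every array, by injected mRNAs (x axis). Points are arrays, the symbol gives the replicate number, the horizontal line is the group mean and the bar the SD (n = 3). The wnt3a+chordin arrays lie highest on average in all panels, and only sox10.L has a wnt3a+chordin+kctd15 array (7.86) inside the range of the wnt3a+chordin arrays.

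Setting wnt3a+chordin against lacZ asks how far the crest-inducing mRNAs raised SoxE transcripts. All 4 genes rose, with measured ratios of 26.1 to 51.5. More cells of a type and more RNA per cell cannot be told apart in such whole caps. Nor can fewer cells and less RNA per cell in the falls described below. sox9.S rose by 5.69 log2 units (SE 0.68, adjusted p = 8.9e-05 by limma). sox10.L rose by 5.18 (SE 1.12, adjusted p = 0.00362), measured against lacZ arrays in which it lay below the 10th percentile, so that its lacZ level, and with it the size of the rise, is poorly fixed. sox9.L rose by 4.88 (SE 0.43, adjusted p = 1.19e-05), and the sox8.L probe sets by 5.10, 4.71 and 4.78 (adjusted p = 3.08e-05, 1.82e-05 and 2.96e-05).

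All 6 probe sets passed the threshold (adjusted p under 0.05) and all 6 kept the 3 wnt3a+chordin arrays above the 3 lacZ arrays. Over all probe sets tested, 24.2% were called higher in this comparison and 31.8% had such non-overlapping arrays. The size of the rise was less common than the call, since 29 to 81 probe sets rose more than a given SoxE probe set. Each replicate pair went the same way for each probe set, which follows from the non-overlapping arrays and is not separate evidence. The smallest difference was 3.35, in replicate 2 of sox10.L. Leaving out any 1 of the 12 arrays kept all 6 calls.

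Setting wnt3a+chordin+kctd15 against wnt3a+chordin asks what the kctd15 mRNA did to crest-like caps. sox9.L and sox9.S fell, and so did sox8.L on probe set 2. sox9.L fell by 2.64 log2 units (SE 0.43, 95% interval -3.58 to -1.69, adjusted p = 0.0239), a level 6.22 times lower. sox9.S fell by 3.82 (SE 0.68, interval -5.33 to -2.31, adjusted p = 0.0369), which is 14.1 times lower. sox8.L fell by 2.44 on probe set 2 (SE 0.44, adjusted p = 0.038), or 5.41 times.

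Of the 6 probe sets 3 were called, where 0.647% of all probe sets were called in either direction and 0.505% lower. The arrays did not overlap on 5 of the 6, against 5.24% of all probe sets with all 3 wnt3a+chordin+kctd15 arrays below. The other sox8.L probe sets differed by almost the same amount and missed the threshold, with -2.55 for probe set 1 (adjusted p = 0.0663) and -2.51 for probe set 3 (adjusted p = 0.0522). With the replicate number as a block both passed (adjusted p = 0.0308 and 0.0396), which makes 5 of 6. More of all probe sets were called with the block too, so the called shares above do not apply to that count. sox10.L had a difference of -3.65 (SE 1.12, interval -6.13 to -1.17, adjusted p = 0.328), and its groups overlapped.

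Every SoxE probe set was lower in each of the 3 replicate pairs of wnt3a+chordin+kctd15 and wnt3a+chordin. For the probe sets whose arrays did not overlap, that direction follows from the lack of overlap and is not separate evidence. The pairs of sox9.L were the most even, at -2.81, -2.68 and -2.42. Those of sox9.S were -4.76, -4.11 and -2.59, and those of sox8.L probe set 1 were -3.54, -3.03 and -1.09. The pairs of sox10.L ran from -7.21 in replicate 1 through -3.34 in replicate 2 to -0.40 in replicate 3. In the first 2 of these pairs the wnt3a+chordin+kctd15 array lay below its 10th percentile, so the size of those differences is poorly fixed. Replicate 3 had the smallest difference for all 4 genes.

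The calls in this comparison were not stable when 1 array was left out. sox9.L lost its call without any 1 of the 6 wnt3a+chordin+kctd15 and wnt3a+chordin arrays (differences of -2.71 to -2.53, adjusted p up to 0.107), and kept it without any of the other 6. The size of its fall thus rested on no single array, and its SD was 0.15 with wnt3a+chordin+kctd15 and 0.18 with wnt3a+chordin. The lacZ arrays, with an SD of 1.11 for sox9.L, also enter the spread behind its p-value. sox9.S kept its call in 2 of 12 such fits (-4.45 to -3.45, adjusted p 0.00948 to 0.161) and sox8.L probe set 2 in 1 of 12 (-2.99 to -2.14, adjusted p 0.00684 to 0.171). Without wnt3a+chordin+kctd15 replicate 3, 5 of the 6 probe sets were called. In that fit sox10.L was at -5.08 (adjusted p = 0.0384).

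**Figure D2:**
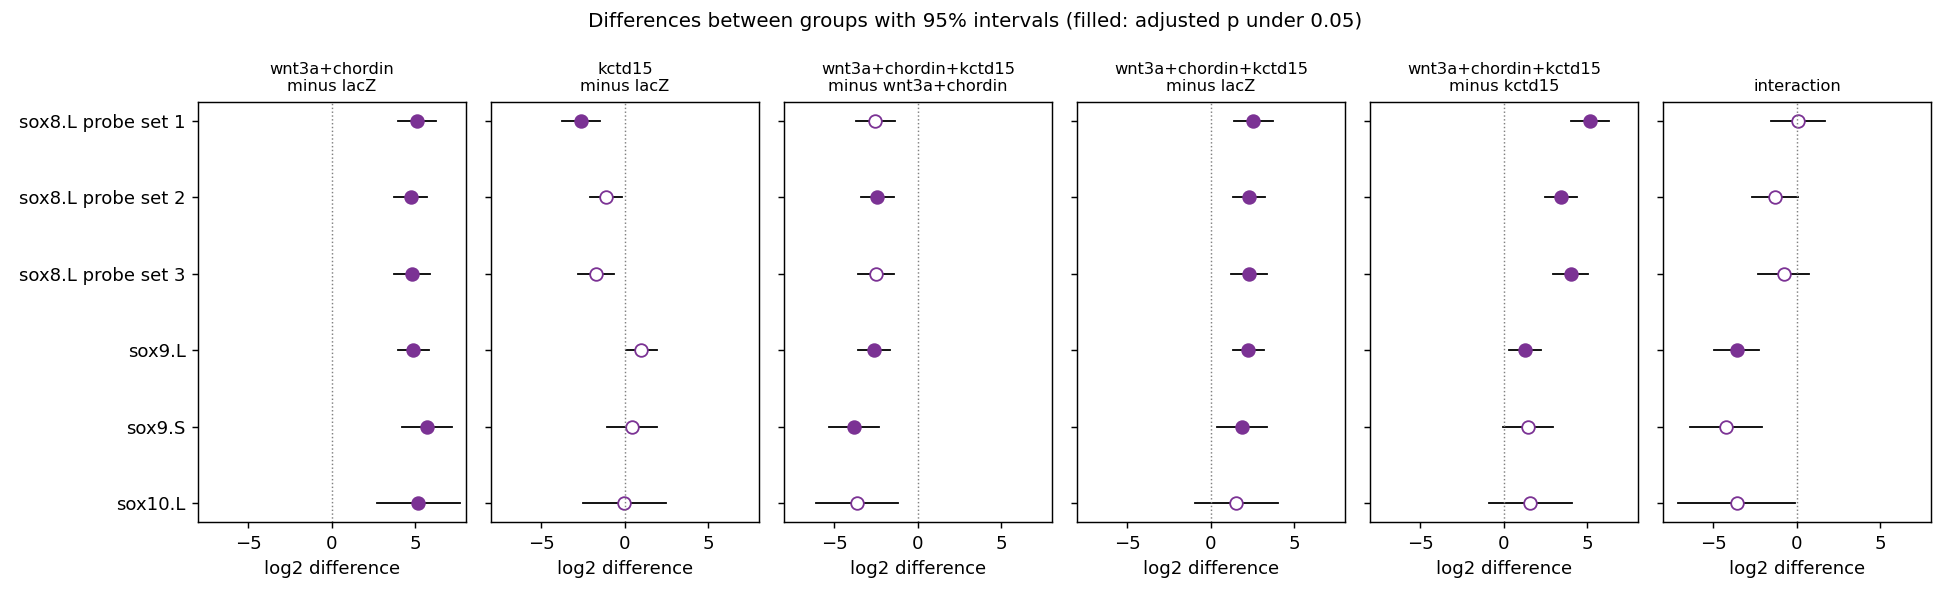
Log2 difference (x axis) with its 95% interval for each SoxE probe set (rows) in 6 comparisons (panels). A filled point marks adjusted p under 0.05 (limma, 12 arrays). All 6 points are filled for wnt3a+chordin minus lacZ, 3 for wnt3a+chordin+kctd15 minus wnt3a+chordin, 1 for kctd15 minus lacZ and 1 for the interaction.

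With all 3 mRNAs, transcripts of sox8.L and both sox9 copies stood above the lacZ level. sox8.L rose over lacZ by 2.55, 2.27 and 2.27 log2 units on its 3 probe sets in wnt3a+chordin+kctd15 caps (adjusted p = 0.00251, 0.00187 and 0.00331), and sox9.L by 2.25 (SE 0.43, adjusted p = 0.00165). sox9.S rose by 1.86 (SE 0.68, adjusted p = 0.0491). sox10.L had a difference of 1.53 (interval -0.95 to 4.01, adjusted p = 0.32) that missed the threshold. In all, 5 of 6 probe sets were called, against 24.3% called higher over all probe sets, and 4 of 6 had non-overlapping arrays, against 29.6%.

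The wnt3a+chordin+kctd15 and wnt3a+chordin groups share their lacZ control here. Against it sox9.S was 3.64 times higher with wnt3a+chordin+kctd15 and 51.5 times with wnt3a+chordin. The same values for sox9.L were 4.74 and 29.5 times, and for sox8.L probe set 1 they were 5.84 and 34.3 times. The call of sox9.S was the least firm, kept in 2 of 12 fits that leave out 1 array, and its difference was 1.23 (adjusted p = 0.176) without wnt3a+chordin+kctd15 replicate 3. The other 4 calls were kept in 12 of 12.

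Against kctd15 alone, the wnt3a+chordin+kctd15 caps had more sox8.L and sox9.L. sox8.L rose by 5.17, 3.41 and 3.99 log2 units on its 3 probe sets (adjusted p = 3.04e-05, 0.000144 and 9.64e-05), and sox9.L rose by 1.27 (SE 0.43, adjusted p = 0.0345). sox9.L kept its call in 7 of 12 fits without 1 array. sox9.S differed by 1.44 without overlap and missed the threshold (adjusted p = 0.12), which it passed with the replicate block (adjusted p = 0.0255). sox10.L differed by 1.57 (adjusted p = 0.302). The count was 4 of 6, where 23.6% of all probe sets were called higher, and 5 of 6 had non-overlapping arrays, against 27.8%.

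In caps without wnt3a and chordin, the kctd15 arrays had less sox8.L than the lacZ arrays on probe set 1. It fell by 2.62 log2 units (SE 0.52, interval -3.77 to -1.47, adjusted p = 0.0128), or 6.16 times, and lost its call without kctd15 replicate 1 (adjusted p = 0.0522). Probe set 3 differed by -1.72 (adjusted p = 0.0612, and 0.0376 with the replicate block) and probe set 2 by -1.14 (adjusted p = 0.174). On all 3 probe sets the kctd15 arrays lay below the lacZ arrays, as in 11.5% of all probe sets. Thus 1 of 6 SoxE probe sets was called, beside 6.99% of all probe sets in either direction. Of the 30 epidermal genes 1 rose and 5 fell in the same comparison.

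sox9.L differed between kctd15 and lacZ by 0.98 (interval 0.03 to 1.92, adjusted p = 0.237), sox9.S by 0.42 (interval -1.09 to 1.94, adjusted p = 0.832) and sox10.L by -0.05 (interval -2.53 to 2.43, adjusted p = 0.991). These intervals are wide, and the groups overlapped for each of the 3. For sox10.L the width comes from the spread pooled over all groups. Its SD was 0.28 with kctd15 and 0.24 with lacZ, but 2.47 with wnt3a+chordin+kctd15 and 1.86 with wnt3a+chordin. All its kctd15 and lacZ arrays lay below the 10th percentile, so a fall of sox10.L could not be read here. lacZ replicate 3 was the highest lacZ array for both sox9 copies. Without it sox9.L was higher in kctd15 arrays, by 1.60 (adjusted p = 0.0033). This was the only 1 of 12 fits without 1 array that called sox9.L, and the replicate block did not call it (adjusted p = 0.125).

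The interaction, which is wnt3a+chordin+kctd15 minus wnt3a+chordin less the difference of kctd15 and lacZ, asks whether the kctd15 label went with a different change in the 2 settings. It was negative and called for sox9.L, at -3.62 (SE 0.60, adjusted p = 0.0232), which lost 2.64 log2 units in the first setting and had a difference of 0.98 in the second. sox9.L averaged 5.54 with lacZ, so a fall by 2.64 from there would have ended below the 10th percentile of the arrays (3.76 to 3.93). Such a fall could not have been read in full in the second setting. sox9.S stood at -4.24 (SE 0.97, adjusted p = 0.0732, and 0.0159 with the replicate block). The same limit holds for sox9.S, which averaged 6.67 with lacZ and fell by 3.82 in the first setting. sox10.L stood at -3.60 (SE 1.58, adjusted p = 0.418). Its kctd15 and lacZ arrays all lay below the 10th percentile, so no fall of sox10.L could be read in the second setting. The sox8.L probe sets gave 0.07, -1.30 and -0.79 (adjusted p = 0.995, 0.48 and 0.803), with an interval of -1.56 to 1.70 on probe set 1. That is 1 of 6 called, against 1.14% of all probe sets. With the block 2 of 6 were called, but that share does not apply there, since more of all probe sets were called too. The sox9.L call was kept in 5 of 12 fits without 1 array (-4.24 to -3.17, adjusted p up to 0.0699).

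Ordered by mean level, sox8.L ran wnt3a+chordin, wnt3a+chordin+kctd15, lacZ, kctd15 on each probe set. The step between wnt3a+chordin and wnt3a+chordin+kctd15 was called on probe set 2 (on all 3 with the replicate block), and the step between lacZ and kctd15 on probe set 1 (also on probe set 3 with the block). sox9.L ran wnt3a+chordin, wnt3a+chordin+kctd15, kctd15, lacZ, with the last pair not differing by the test. sox9.S had the same order, in which neither wnt3a+chordin+kctd15 and kctd15 nor kctd15 and lacZ differed by the test, though with the replicate block the first of these pairs did (adjusted p = 0.0255). For sox10.L no neighbours in the order wnt3a+chordin, wnt3a+chordin+kctd15, lacZ, kctd15 were called apart.

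A few arrays stood away from their group. In wnt3a+chordin+kctd15 replicate 3, sox10.L was 4.28 log2 units above the mean of the other 2 arrays, sox8.L 1.66 to 2.07 and sox9.S 1.90, while sox9.L was 0.21 above. In that array the 25 border and crest specifiers had a median of 0.83 above the other 2, and 10 of the 25 were over 1 log2 unit higher. In wnt3a+chordin replicate 1, sox10.L was 3.05 above the other 2 arrays, sox8.L 0.57 to 0.79 and both sox9 copies 0.31. The SoxE genes thus shared the direction in both arrays and differed in size.

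In lacZ replicate 3, sox9.S was 2.52 and sox9.L 1.86 above the other 2 lacZ arrays, sox8.L 0.57 to 0.98 and sox10.L 0.11. Markers of some other cell types were also high in that array. The 22 pan-neural genes had a median of 1.61 above the other 2 arrays (18 over 1), the 19 notochord and axial mesoderm genes 1.83 (14 over 1) and the 33 somitic muscle genes 0.73 (16 over 1). The 25 border and crest specifiers had a median of 0.13 (6 over 1) and the 18 placode genes 0.23 (5 over 1). The share of all probe sets over 1 was not taken, for this array or for the others described above and below. In kctd15 replicate 3 the pan-neural median was 1.02 above the other 2 arrays (11 over 1) and the notochord median 1.21 (12 over 1). In wnt3a+chordin+kctd15 replicate 2 the muscle median was 1.45 above the other 2 arrays (18 over 1) and the notochord median 1.19 (10 over 1). The mean muscle level per array was 4.74 to 6.80 with wnt3a+chordin+kctd15, 4.64 to 6.07 with wnt3a+chordin, 4.59 to 5.24 with kctd15 and 4.46 to 6.35 with lacZ. Its highest values were in wnt3a+chordin+kctd15 replicate 2 and lacZ replicate 3. Without both arrays sox9.L stayed called in the interaction and between wnt3a+chordin+kctd15 and wnt3a+chordin, and sox8.L probe set 2 was not called in that last comparison (-2.14, adjusted p = 0.134). That fit kept wnt3a+chordin replicates 2 and 3, whose mean muscle levels were 6.07 and 5.99, so it cannot show the part of these cells in the results. That part was not tested.

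The sox9 copies were compared by the gap between their probe sets (sox9.S minus sox9.L) within each array, of which only the change between groups is read, since probe sets differ in sensitivity. The gap was -0.01, 0.39 and 1.88 with wnt3a+chordin+kctd15, 1.94, 1.82 and 2.05 with wnt3a+chordin, 0.47, 0.46 and 0.80 with kctd15, and 1.21, 0.62 and 1.57 with lacZ. It was even among the wnt3a+chordin arrays and widely spread among the wnt3a+chordin+kctd15 arrays. The gap was 0.80 wider with wnt3a+chordin than with lacZ without overlap (two-sided exact permutation test, p = 0.1, which is the lowest p possible at this group size). With wnt3a+chordin+kctd15 it was 1.18 narrower than with wnt3a+chordin, with overlap (exact permutation p = 0.2).

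Other genes that specify the plate border and the crest were read from a list of 25 (tfap2, pax3, pax7, zic1, msx, foxd3, snai, twist1, ets1, myc, mycn and id3 genes). Against lacZ, 16 of the 25 were higher and 0 lower with wnt3a+chordin (17 and 1 with the replicate block), with a list median of 1.75 beside 0.11 over all probe sets. Of all probe sets 24.2% were called higher there. foxd3.L, a forkhead factor of early crest, rose by 7.17 log2 units (SE 0.66), foxd3.S by 6.90 and zic1.S, a zinc finger factor of the border, by 6.37. Between wnt3a+chordin+kctd15 and wnt3a+chordin 2 of the 25 fell and 0 rose (1 and 0 with the block), and the median was -0.58 beside 0.00 over all probe sets. Of all probe sets 0.505% were called lower there and 0.142% higher. snai2.L, a zinc finger factor of crest cells about to migrate, fell by 4.36 (SE 0.81, adjusted p = 0.0457). It also averaged 3.33 with kctd15 and 6.37 with lacZ, not called in the fit without the block. The other copy, snai2.S, averaged 5.15 with wnt3a+chordin+kctd15, 7.02 with wnt3a+chordin and 6.31 with lacZ. snai2.S was called neither between wnt3a+chordin+kctd15 and wnt3a+chordin nor between wnt3a+chordin and lacZ. ets1.L, an ETS factor of the cranial crest, fell by 2.64 (SE 0.48, adjusted p = 0.0399, and 0.0532 with the replicate block). With wnt3a+chordin against lacZ ets1.L had not been called higher (0.10, limma adjusted p = 0.897). The other copy, ets1.S, did rise there, by 1.75 (SE 0.39, limma adjusted p = 0.00448). It averaged 8.55 with wnt3a+chordin+kctd15 and 9.48 with wnt3a+chordin, and was not called between these groups.

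Between wnt3a+chordin+kctd15 and wnt3a+chordin 23 of the 25 genes of that list were not called. Among them were the border genes zic1 and pax3, but also foxd3.L, foxd3.S, twist1.L and snai1.S. twist1.L averaged 7.66 with wnt3a+chordin+kctd15 and 9.35 with wnt3a+chordin, and snai1.S averaged 11.09 and 12.38. zic1.S differed by 0.21 and pax3.S, a paired-box factor of the border, by -0.25 (adjusted p = 1 for both). Against lacZ, 12 of the 25 were higher and 1 lower with wnt3a+chordin+kctd15 (13 and 2 with the replicate block), led by zic1.S at 6.58, pax3.S at 6.12 and mycn.L at 5.32. The other pax3 copy, pax3.L, did not rise, averaging 12.3 with wnt3a+chordin+kctd15 and 12.8 with lacZ. Of all probe sets 24.3% were called higher there. In kctd15 against lacZ 1 of the 25 rose and 2 fell (1 and 3 with the replicate block), where 2.68% of all probe sets were called higher and 4.31% lower. Those that fell were snai1.S, by 3.61 (adjusted p = 0.00288), and ets1.L, by 2.25 (adjusted p = 0.0186). Without lacZ replicate 3 and wnt3a+chordin+kctd15 replicate 2 together, 0 of the 25 were called between wnt3a+chordin+kctd15 and wnt3a+chordin. The share over all probe sets in that fit is not given here, so this count is not read as a result about the list.

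**Figure D3:**
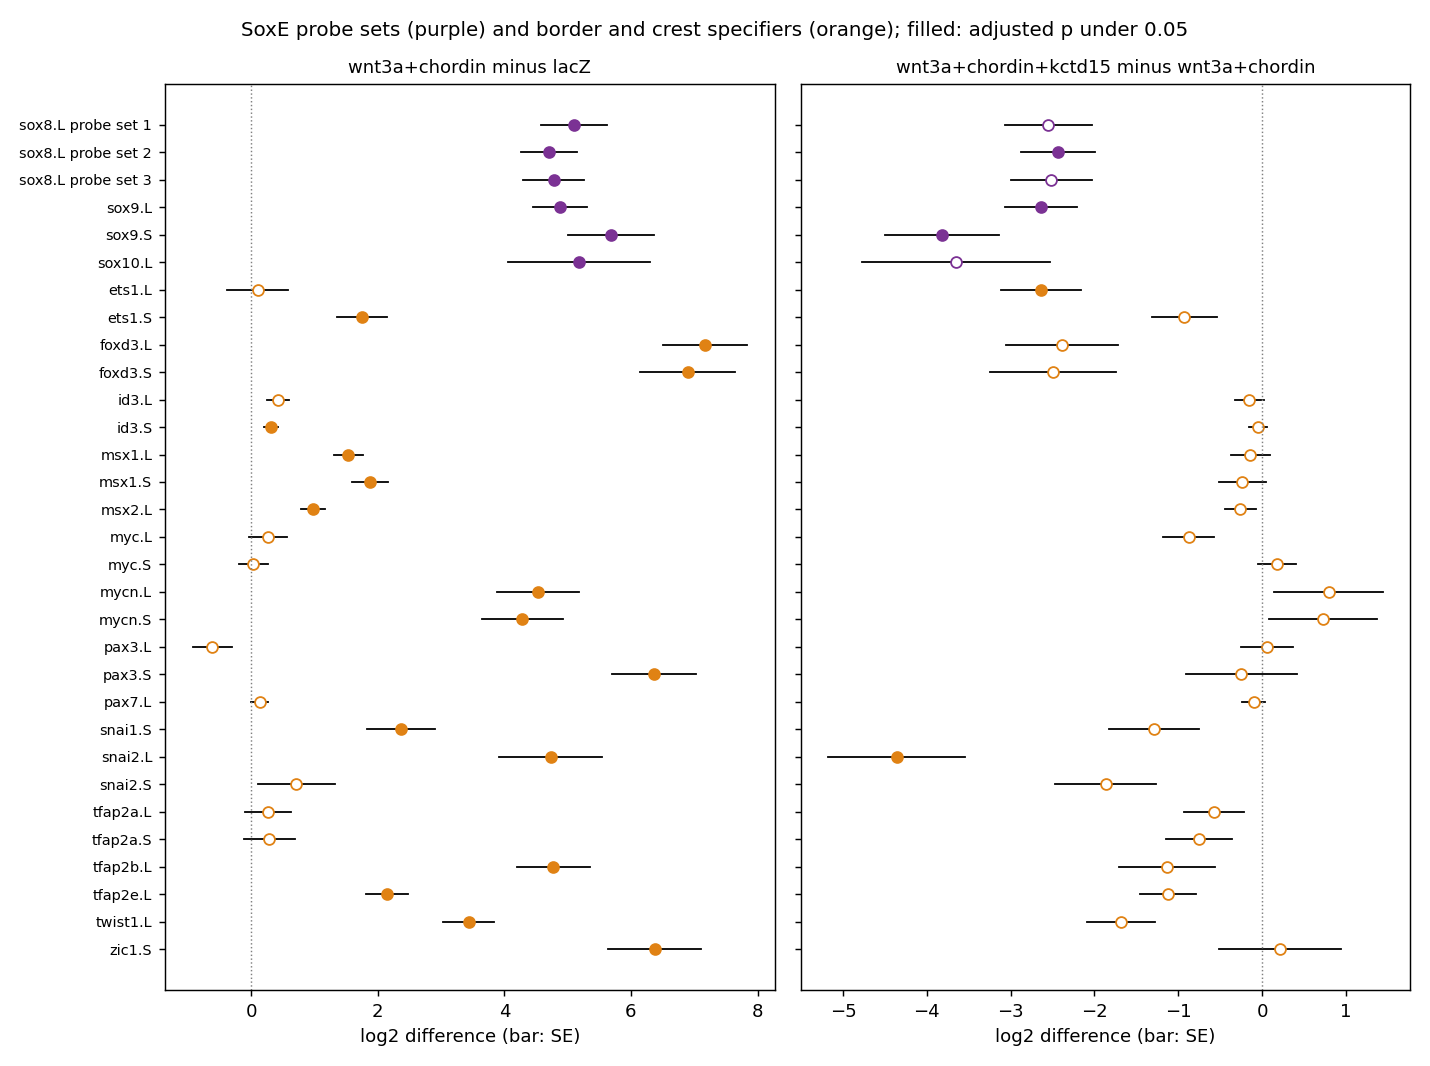
Log2 difference with its SE (x axis) for the 6 SoxE probe sets and the 25 border and crest specifiers (rows), for wnt3a+chordin minus lacZ (left) and wnt3a+chordin+kctd15 minus wnt3a+chordin (right). Filled points have adjusted p under 0.05. On the left 16 specifiers are filled, and on the right snai2.L (-4.36) and ets1.L (-2.64) are.

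Of 14 genes known to act downstream of SoxE factors in pigment cells, glia or cartilage, 1 rose and 2 fell with wnt3a+chordin against lacZ (1 and 3 with the replicate block), beside 24.2% of all probe sets called higher and 17.1% lower, with a median of 0.16 beside 0.11 over all probe sets. kit.L and kit.S, which encode a receptor tyrosine kinase of pigment cell precursors, fell by 4.78 and 4.25 log2 units. pmel.S, which encodes a pigment granule protein, rose by 1.14. In every group matn1.L, mitf.L and mbp.L averaged 3.74 or less, below the 10th percentile of the arrays (3.76 to 3.93). A fall in these genes could therefore not be read. With wnt3a+chordin+kctd15 against wnt3a+chordin, kit.L rose by 2.14 (SE 0.31, adjusted p = 0.0149) and no other was called, where 0.142% of all probe sets were called higher. With the replicate block 2 of the 14 rose.

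Of 15 Sox genes outside the SoxE group, 8 rose and 1 fell with wnt3a+chordin against lacZ, beside 24.2% and 17.1% of all probe sets. sox2.L and sox11.S, which mark the neural plate, rose by 3.75 and 3.67, and sox7.L, a SoxF gene of endoderm and vessels, fell by 4.93. Between wnt3a+chordin+kctd15 and wnt3a+chordin 0 of the 15 were called by limma, with or without the replicate block, where 0.647% of all probe sets were called. There sox2.L differed by 0.79 and sox11.S by 0.44. The pan-neural list rose in 22 of 22 genes with wnt3a+chordin against lacZ, and 0 of the 22 were called between wnt3a+chordin+kctd15 and wnt3a+chordin. Beside a share of 0.647%, neither 0 of 15 nor 0 of 22 is read as a result about its list. The lists share sox1.S, sox2.L, sox3.L, sox3.S and sox11.S. The pan-neural mean level per array was 11.00 to 11.39 in the wnt3a+chordin+kctd15 group and 10.77 to 11.20 in the wnt3a+chordin group.

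Placode genes were read because sox9 is also made in the otic placode. Of 18, 1 rose and 4 fell with wnt3a+chordin against lacZ (1 and 6 with the replicate block), beside 24.2% and 17.1% of all probe sets. Between wnt3a+chordin+kctd15 and wnt3a+chordin 0 of the 18 were called, beside 0.647% of all probe sets, so neither count is read as a result about the list. With wnt3a+chordin against lacZ the largest called differences were falls, of tbx2.L by 5.70 and tbx2.S by 3.11. hmx3.L fell by 1.25 (adjusted p = 0.0022). The one that rose was pax2.L, a paired-box gene of the otic placode, by 1.80 (adjusted p = 0.043). Among 30 epidermal genes 2 rose and 18 fell with wnt3a+chordin against lacZ, where 17.1% of all probe sets were called lower. With wnt3a+chordin+kctd15 against wnt3a+chordin 3 of the 30 fell, beside 0.505% of all probe sets called lower. Among them were tp63.L and tp63.S, transcription factors of basal epidermis, by 2.89 and 2.53. Both copies also fell with kctd15 against lacZ, by 3.83 and 4.06 (limma adjusted p = 0.000674 and 0.000225).

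For each SoxE gene the 3 genes with the closest pattern were found among 10818 genes, by the root mean square (RMS) of the differences between profiles over the 12 arrays, each centred on its own mean. sox8.L was closest to foxd3.S (RMS 0.96 log2 units), foxd3.L (0.98) and nog.L, which encodes the BMP antagonist noggin (1.00). For sox8.L only probe set 1 was searched, which lay at RMS 0.79 from probe set 2 and 0.51 from probe set 3. sox9.L was closest to kiaa1210.L (0.58), the metalloprotease gene mmp28.L (0.72) and bmp2.S, which encodes a BMP ligand (0.74). sox9.S was closest to cib2.S, a calcium-binding protein gene (0.76), kiaa1210.L (0.82) and mmp28.L (0.92). The 2 sox9 copies, which were not allowed to pair in that search, lay at 0.70 from each other.

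sox10.L was closest to cib2.S (0.92), the metalloprotease gene astl3a.1.L (1.08) and tmem163.L, a gene for a membrane protein (1.20). The last pair lay farther than any neighbour of the other SoxE genes. Since the neighbours were picked on these same 12 arrays, their differences between groups follow in part from the choice and are given as a description. Among the 9 neighbours 3 were called lower with wnt3a+chordin+kctd15 than with wnt3a+chordin, beside 0.505% of all probe sets, and with the replicate block bmp2.S was called too (-1.96, adjusted p = 0.13, and 0.0272 with the block). cib2.S read 4.22, 4.28 and 5.80 with wnt3a+chordin+kctd15 and 9.35, 7.99 and 8.89 with wnt3a+chordin, a fall of 3.98 (SE 0.42, adjusted p = 0.00284). The groups lay far apart for cib2.S, and its wnt3a+chordin+kctd15 replicate 3 was the highest of its group, as for sox10.L. mmp28.L fell by 2.46 (SE 0.44, adjusted p = 0.038) and kiaa1210.L by 2.03 (SE 0.38, adjusted p = 0.0457). The foxd3 copies differed by -2.50 for foxd3.S and -2.39 for foxd3.L and missed the threshold (adjusted p = 0.309 and 0.234).

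**Figure D4:**
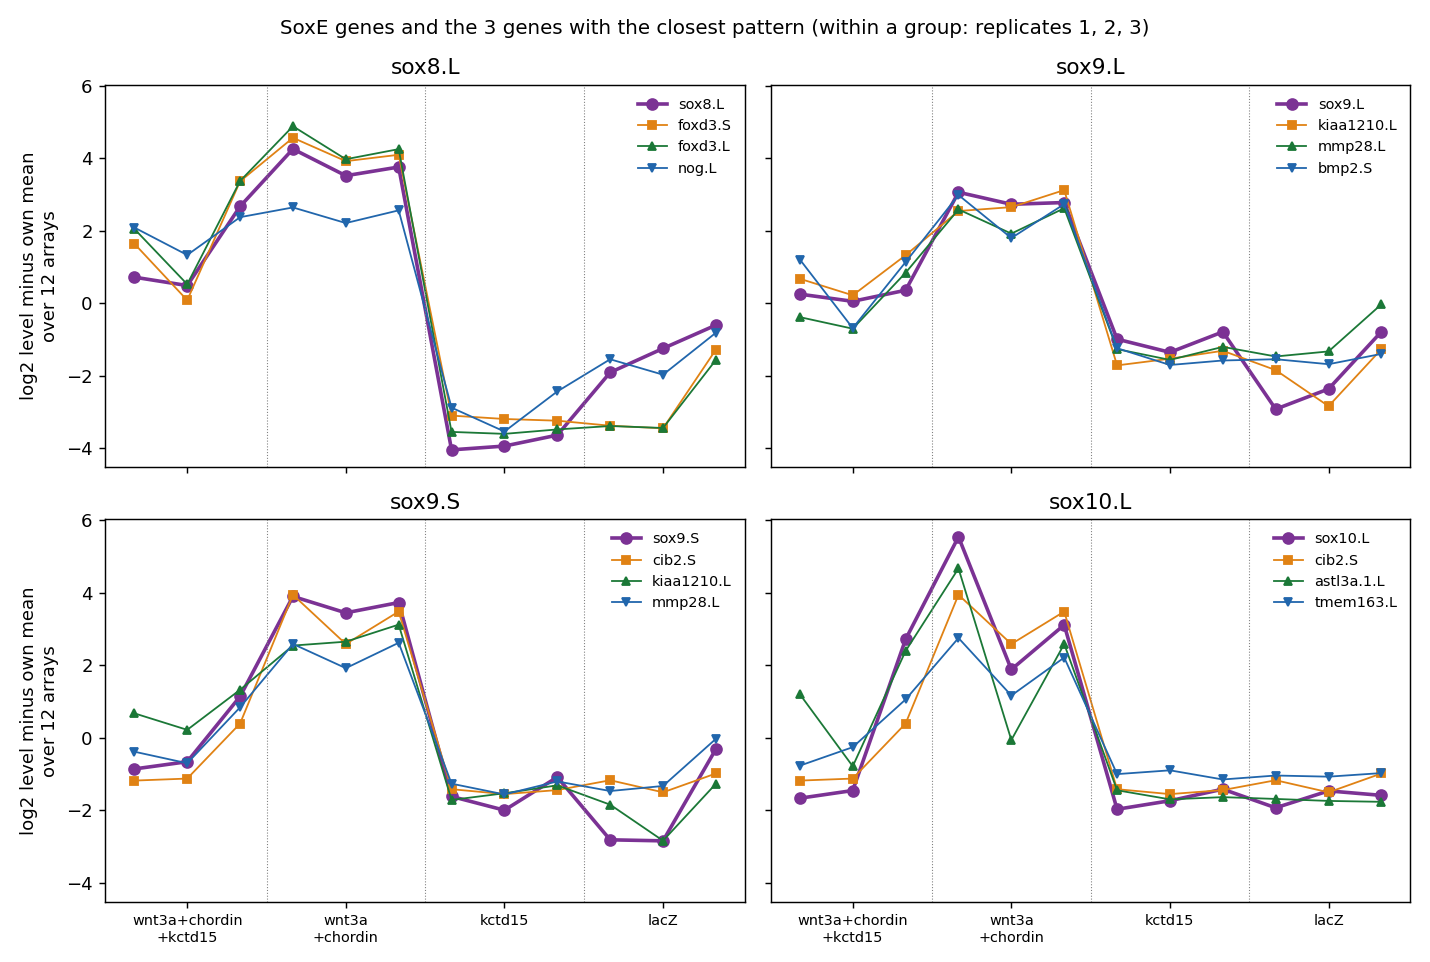
Level minus its own mean over 12 arrays (log2, y axis) for each SoxE gene (thick line) and the 3 genes closest to it (thin lines), array by array (x axis, replicates 1, 2 and 3 within each group). sox8.L is drawn from its probe set 1. Lines join arrays only to guide the eye. The closest match is kiaa1210.L to sox9.L (RMS 0.58), and the lines part most for sox10.L.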

How the data were processed

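Per the labels, RNA was prepared with TRIzol, and biotin-labelled aRNA from in vitro transcription was hybridised to a 3' Affymetrix array. The authors deposited log2 expression per probe set, and Partek is named in the submitters' processing notes. No source used here gives its version or how background, summarisation and normalization were done. The values ran from 2.38 to 15.58 with none negative.

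Of 32635 probe sets, 96 controls and 64 reporters were left out, which left 32475. In the platform annotation 15495 of these had 1 symbol, 279 several and 16701 none, and 15384 identifiers were found in assembly v10.1 for current symbols and positions. No filter on low values was used, so all 6 SoxE probe sets were tested.

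All 12 arrays were fitted together in limma 3.58.1 under R 4.3.3, with 4 group means and moderated variances (eBayes). Each probe set thus had 1 spread for all 4 groups, also where the groups differed in spread. Two-sided p-values were adjusted after Benjamini and Hochberg over all 32475 probe sets within each comparison, with the threshold at 0.05. Intervals are 95% intervals of the fit, not adjusted. Replicates of a group correlated at Pearson's r of 0.971 to 0.986. The replicate numbers come from the sample titles, with no word on their meaning. Arrays of 1 number deviated together from their group means (r of 0.18 to 0.71 over 18 pairs). Pairs of different numbers gave -0.51 to 0.10 over 36 pairs, which is not separate evidence, since deviations cancel out within a group. The numbers were taken to pair the arrays for replicate differences and for an alternative fit with the number as a block. Shares over all probe sets come from the fit without the block, as do p-values and calls unless the block is named. The block fit is given where it changes the call of a SoxE probe set or named gene or the count of a list.

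Lists used the probe set of highest mean for each gene, and named up to 3 genes past the threshold with the largest absolute difference per list and comparison. zic1.S, pax3.S, twist1.L, snai1.S, sox2.L and sox11.S between wnt3a+chordin+kctd15 and wnt3a+chordin were named beyond that rule, after their values were seen. The same holds for ets1.L, ets1.S, snai2.S and hmx3.L with wnt3a+chordin against lacZ. It also holds for the levels of snai2.L, snai2.S, ets1.S, pax3.L, matn1.L, mitf.L and mbp.L. Closest patterns took genes with 1 symbol that is no placeholder. The members, lists and alternatives were chosen with earlier results of these data known. Tests were tried on simulated data. The alternatives tried were quantile normalization, centring of arrays on their medians, array weights, a trend in the variance prior, the replicate block, omission of dim probe sets, fits of the compared groups alone, and omission of arrays.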

Additional observations from a re-analysis of the deposited data

Results flagged for a closer look

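For sox9.L the change that went with the kctd15 label differed between caps with and without wnt3a and chordin. The difference of the differences was -3.62 log2 units (SE 0.60, limma adjusted p = 0.0232), made of a fall by 2.64 between wnt3a+chordin+kctd15 and wnt3a+chordin and a difference of 0.98 between kctd15 and lacZ. Without lacZ replicate 3 the difference of the differences was -4.24. sox9.L averaged 5.54 with lacZ, so a fall by 2.64 from there would have ended below the 10th percentile of the arrays (3.76 to 3.93). Such a fall could thus not have been read in full in caps without wnt3a and chordin. The interaction of sox9.L passed the threshold in 5 of 12 fits that leave out 1 array.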

How the results depend on the processing

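Over 36 SoxE results under 20 alternatives, 623 of 708 values kept their direction and side of the threshold, 54 lost a call, 24 gained one and 7 changed sign. No SoxE call was lost under the replicate block, quantile normalization, median centring, array weights or the prior with trend, and beyond the calls given above the block changed none. Between wnt3a+chordin+kctd15 and wnt3a+chordin the SoxE count of 3 was 5 with the block, 1 with only the 2 groups fitted and 0 to 5 without 1 array. For kctd15 minus lacZ the count of 1 was 2 with the block, array weights, only those groups, or lacZ replicate 3 and wnt3a+chordin+kctd15 replicate 2 left out together, and 0 to 3 without 1 array. For the interaction the count of 1 was 2 with the block, array weights or those 2 arrays left out, and 0 to 2 without 1 array. The sign changes came from leaving out 1 array and none was called: the interaction of sox8.L probe set 1 ran from -0.62 to 0.47, and kctd15 minus lacZ from -0.19 to 0.085 for sox10.L and from -0.0042 to 1.26 for sox9.S. sox10.L was not tested where dim probe sets were left out.

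Over all probe sets, the 210 called between wnt3a+chordin+kctd15 and wnt3a+chordin were 443 with the block, 136 without dim probe sets, 49 with only the 2 groups fitted and 67 to 200 without 1 array. The 2269 for kctd15 minus lacZ were 4992 with the block and 1312 to 2364 without 1 array. The 371 of the interaction were 1063 with the block, 202 without dim probe sets, 236 without the 2 arrays together and 134 to 599 without 1 array. The cause of these shifts was not tested. Low signal limits sox10.L, which had 8 of 12 arrays below the 10th percentile.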
